A study of Macaca mulatta with 29 samples.

Results

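Rhesus monkey embryonic stem cells kept for 4 weeks with di(2-ethylhexyl) phthalate (DEHP) were compared with cells that received only the methanol vehicle. The comparison takes the 4 DEHP libraries and the 5 vehicle libraries of the deposited FPKM table, 9 of 29 libraries in all. Genes whose FPKM averaged 1 or more over these 9 libraries were kept, 11086 of the 16048 in the table. FPKM are numbers of sequenced fragments scaled to transcript length and library size.

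The cells were the macaque line ORMES-6, a single embryonic stem cell line grown as colonies on mitotically inactivated mouse embryonic fibroblasts in serum-containing medium under 5% oxygen. DEHP was given at 5 µM from a methanol stock, and vehicle wells received methanol alone. The other groups of the series received atrazine (30 µM), perfluorooctanoic acid (PFOA, 100 nM), tributyltin (25 nM) or bisphenol A (10 nM) under the same conditions. The passage number is given as 3 for all of them. Each treatment had a single plate, so the compound and the plate cannot be told apart, and replicates are wells of that plate carried in parallel. All p-values below therefore measure the spread between wells. RNA came from the colonies cut from a well and lifted, was amplified with a kit for small inputs, and was read as 50-nucleotide single ends. In such bulk samples, fewer cells of a type and less RNA per cell cannot be told apart.

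DEHP is a plasticizer that leaches from soft polyvinyl chloride, and esterases cut it to the monoester MEHP. The monoester is known as a ligand of the peroxisome proliferator-activated receptors (PPARs), nuclear receptors that pair with RXR and switch on genes of fatty acid oxidation and lipid storage. Phthalates are studied as endocrine disruptors, above all for lower steroid hormone synthesis in the fetal testis. Cells sense oxygen through prolyl hydroxylases (EGLN1 to EGLN3), which mark the HIF transcription factors for destruction when oxygen is ample. When oxygen is short, HIF raises genes of glucose uptake, glycolysis, pH control and its own hydroxylases. Pluripotent stem cells rely strongly on glycolysis.

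The libraries carried the profile of the labelled cell type. The 8 of 10 pluripotent stem cell markers found in the table summed to 2414, 2528 and 2665 FPKM (lowest, median and highest) with DEHP and to 2436, 2722 and 2892 FPKM with vehicle. Of 12 fibroblast or feeder markers, 5 had a mean of at least 1 FPKM. Their whole list summed to 90.2, 107 and 108 FPKM with DEHP and 89.4, 106 and 129 FPKM with vehicle, and LUM and DCN, which define mature fibroblasts, were at 0 in all 9 libraries. Library depth, estimated from the smallest steps of low FPKM values, ran from 60.7% to 78.5% of the deepest library with DEHP and from 47.6% to 100% with vehicle. Replicate 1 of both groups stood apart: on the first principal component, 32.8% of the variance, vehicle replicate 1 lay at -20.7 and DEHP replicate 1 at -18.8, while the other libraries lay between -0.667 and 17.8. Pearson correlations of log2(FPKM + 1) across genes were 0.988 to 0.995 within DEHP, 0.978 to 0.992 within vehicle and 0.979 to 0.994 between the groups.

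The main test called no gene between DEHP and vehicle, which does not show that the transcriptomes were alike. The differences with the smallest p-values were lower levels of SPP1, STC1, IGFBP5, HK2, ADM, BHLHE40, PFKFB3 and PTPRB and higher levels of CCL1, IL17F, CALCRL, YPEL4, FAIM, C19orf12, CA9 and GSTK1. No gene passed an adjusted p of 0.05 in limma's moderated test with Benjamini-Hochberg adjustment over the 11086 genes: 0 were called (0%), and the smallest adjusted p was 0.195. At an unadjusted p under 0.05 there were 876 genes (7.90%), where 554.3 would come up if no gene differed. Of these, 543 were lower with DEHP (4.90%) and 333 were higher (3.00%). In 182 genes all 4 DEHP libraries lay below all 5 vehicle libraries (1.64%), and in 99 they all lay above (0.893%). The median difference over all genes was -0.0083 on the log2(FPKM + 1) scale. The 95% interval of a gene's difference had a median halfwidth of 0.238 on that scale, without adjustment for the number of genes tested. Larger differences also failed the adjusted threshold, SPP1 at -1.12 and HK2 at -0.43 among them, so differences well above that halfwidth could be missed.

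These counts leaned on particular wells. Without vehicle replicate 1, 1038 genes had an unadjusted p under 0.05 and were lower with DEHP, and 882 were higher. Without replicate 1 of both groups the counts were 941 and 755, and without DEHP replicate 4 they were 244 and 193. The adjusted count stayed at 0 without both replicates numbered 1. It was 4 without vehicle replicate 1 and 2 without DEHP replicate 1, where SPP1 was called both times.

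**Figure D1:**
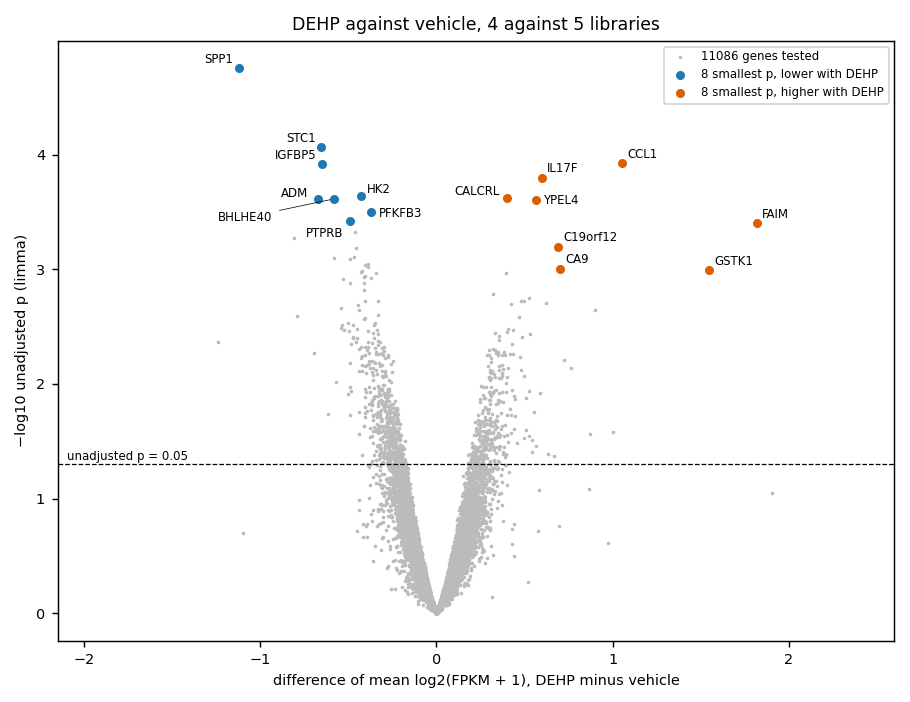
Each point is a gene, with the difference of mean log2(FPKM + 1), DEHP minus vehicle, on the horizontal axis and −log10 of the unadjusted p from limma on the vertical axis. The named points are the 8 genes with the smallest p in each direction; SPP1 at -1.12 has the smallest p of all, and the dashed line is an unadjusted p of 0.05.

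The smallest p of the comparison belonged to SPP1. SPP1 (human Entrez Gene 6696) encodes osteopontin, a secreted phosphoprotein that binds integrins. It measured 36.4, 46.4, 48.5, 59.5 and 35.3 FPKM in vehicle replicates 1 to 5 and 25.9, 15.0, 16.8 and 23.8 FPKM in DEHP replicates 1 to 4. All 4 DEHP libraries lay below all 5 vehicle libraries, and the mean was 45.2 ± 9.89 FPKM (SD, n = 5) with vehicle and 20.4 ± 5.26 FPKM (SD, n = 4) with DEHP. The difference was -1.12 (SE 0.17) on the log2(FPKM + 1) scale, with an adjusted p of 0.195 in limma. Of the 29 tested genes for matrix proteins, osteopontin and integrins, 2 were lower at an unadjusted p under 0.05, SPP1 and ITGB1, an integrin chain (-0.28), and 0 were higher. Among all genes, 4.90% were lower and 3.00% higher at that p. The median of that list was 0.04.

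STC1 (Entrez 6781) encodes stanniocalcin-1, a secreted glycoprotein that HIF is known to raise. Vehicle libraries held 31.9, 34.5, 30.9, 26.5 and 22.4 FPKM and DEHP libraries 16.2, 17.2, 19.6 and 19.2 FPKM, again with no overlap. Its difference was -0.66 (SE 0.12, limma adjusted p 0.278), the second smallest p of the comparison. With all 29 libraries sharing a single estimate of the spread, STC1 was the 1 gene that passed, with an adjusted p of 0.0448. STC2, its paralog, differed by -0.18 (unadjusted limma p 0.0476). IGFBP5 (Entrez 3488), a secreted binding protein of insulin-like growth factors, stood at 4.24, 5.49, 3.91, 3.94 and 3.53 FPKM with vehicle and at 2.78, 1.80, 2.29 and 2.45 FPKM with DEHP, a difference of -0.65 (limma adjusted p 0.278). Every DEHP value of IGFBP5 lay under the lowest vehicle value.

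The 16 tested genes of the IGF axis, a list that also holds both stanniocalcins, had 4 members lower at an unadjusted p under 0.05 and 0 higher, and the same number lying wholly below vehicle, beside 4.90%, 3.00% and 1.64% of all genes. These were IGFBP5, STC1, STC2 and IGF2BP1, an mRNA-binding protein that stabilizes growth-related transcripts (-0.23). The list's median was -0.04, beside -0.0083 over all genes. This list was chosen with earlier results of these data known, so its count is not independent evidence of a direction. STC1 is also counted in the list of oxygen sensing genes below. Without DEHP replicate 2 or vehicle replicate 4 the count of lower members was 2.

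**Figure D2:**
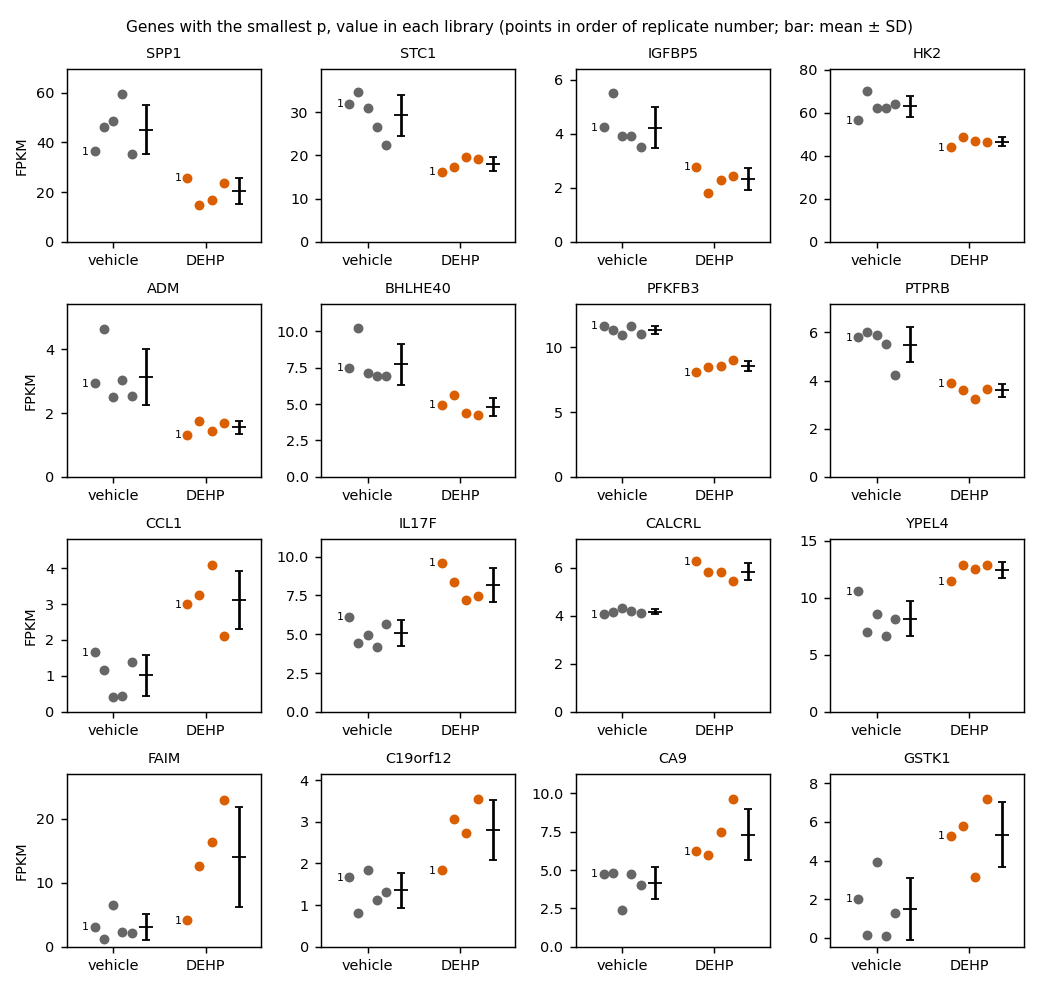
FPKM in each library for the 8 lower and 8 higher genes with the smallest p, vehicle in grey and DEHP in orange, in order of replicate number with replicate 1 marked; bars are the group mean ± SD. In all but FAIM and GSTK1 the DEHP and vehicle points do not overlap, as in HK2, where vehicle runs from 56.6 to 69.9 FPKM and DEHP from 44.0 to 48.9 FPKM. The genes were picked by p in these same libraries, which favours such separation. Among all genes tested, 2.53% do not overlap.

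Genes known to respond to low oxygen lay mostly on the lower side with DEHP. Of the 36 tested genes for oxygen sensing and hypoxia response, 15 had an unadjusted p under 0.05 and a lower level, and 3 a higher one, beside 4.90% and 3.00% of all genes. In 10 of them all DEHP libraries lay below all vehicle libraries, and in 2 above, beside 1.64% and 0.893% of all genes. The list's median was -0.15, with 29 of 36 members below 0. This list was drawn up with earlier results of these libraries known and includes genes picked for that reason, so its count is not independent evidence of a direction. The lower count ran from 11 to 16 when any single library was left out and was 14 without replicate 1 of both groups. The other gene lists were also chosen with earlier results of these data known, so the counts of those lists are not independent evidence either.

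Among the sensors, EGLN1 (Entrez 54583) is the prolyl hydroxylase that marks HIF alpha chains for destruction under normal oxygen. It stood at 28.3, 32.5, 37.0, 30.2 and 25.6 FPKM with vehicle and at 19.2, 21.9, 22.7 and 23.6 FPKM with DEHP, with all DEHP values under all vehicle values (-0.47, SE 0.11, limma adjusted p 0.405). EGLN3, its hypoxia-inducible relative, differed by -0.21 (unadjusted limma p 0.0695) and EGLN2 by 0.11 (p 0.322). The mRNAs of HIF1A, the oxygen-labile chain, and of its partner ARNT differed by -0.031 and 0.0051, and HIF1AN, which hydroxylates an asparagine of HIF, by -0.088. EPAS1, the gene of the second HIF alpha chain, lay under the filter of 1 FPKM.

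Next come HIF targets with signalling or transcriptional roles. ADM (Entrez 133), the vasodilator peptide adrenomedullin, measured 2.94, 4.64, 2.50, 3.05 and 2.53 FPKM with vehicle and 1.32, 1.75, 1.45 and 1.70 FPKM with DEHP. At these low levels the 4 DEHP values still lay under the lowest vehicle value, while vehicle replicate 2 stood well above its group (-0.67, limma adjusted p 0.278). BHLHE40 (Entrez 8553) is a transcriptional repressor that links hypoxia and the circadian clock. It held 7.50, 10.2, 7.14, 6.95 and 6.92 FPKM with vehicle and 4.96, 5.64, 4.38 and 4.27 FPKM with DEHP (-0.58, limma adjusted p 0.278). Its paralog BHLHE41 differed by -0.41, and DDIT4, an inhibitor of mTORC1, by -0.36. VEGFA, the angiogenic growth factor and a textbook HIF target, differed by 0.11 with an unadjusted limma p of 0.211.

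Other HIF targets act on chromatin or in metabolism. SAP30, a subunit of the SIN3 deacetylase complex, stood at 15.7, 16.7, 13.3, 12.4 and 15.7 FPKM with vehicle and 10.6, 11.0, 9.62 and 11.8 FPKM with DEHP (-0.42, unadjusted limma p 0.00103). The groups did not overlap. AK4, a mitochondrial adenylate kinase, stood at 109.6, 148, 129, 135 and 124 FPKM and 88.4, 104, 95.9 and 98.8 FPKM in the same order (-0.41, unadjusted limma p 0.00131), and its groups did not overlap. KDM3A and KDM5B, histone lysine demethylases, differed by -0.44 and -0.24. RIOK3, a kinase of the RIO family, differed by -0.33, FAM162A, a mitochondrial protein, by -0.36, ANKRD37 by -0.29, and INSIG2, which holds the sterol sensor SCAP in the endoplasmic reticulum, by -0.44. BNIP3 and BNIP3L, which tag mitochondria for autophagy, differed by -0.11 and -0.046 with limma p-values of 0.313 and 0.679.

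The 3 members that were higher at an unadjusted p under 0.05 were CA9, CA12 and NDRG1. CA9 (Entrez 768), a membrane carbonic anhydrase of pH control, is among the best known HIF targets. It measured 4.75, 4.81, 2.39, 4.76 and 4.02 FPKM with vehicle and 6.22, 5.96, 7.46 and 9.64 FPKM with DEHP. All DEHP values lay above all vehicle values (0.70, SE 0.17, limma adjusted p 0.405). CA12, another membrane carbonic anhydrase, differed by 0.26, and NDRG1, a stress-responsive cytoplasmic protein, by 0.34. Known HIF targets therefore lay on both sides of vehicle.

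**Figure D3:**
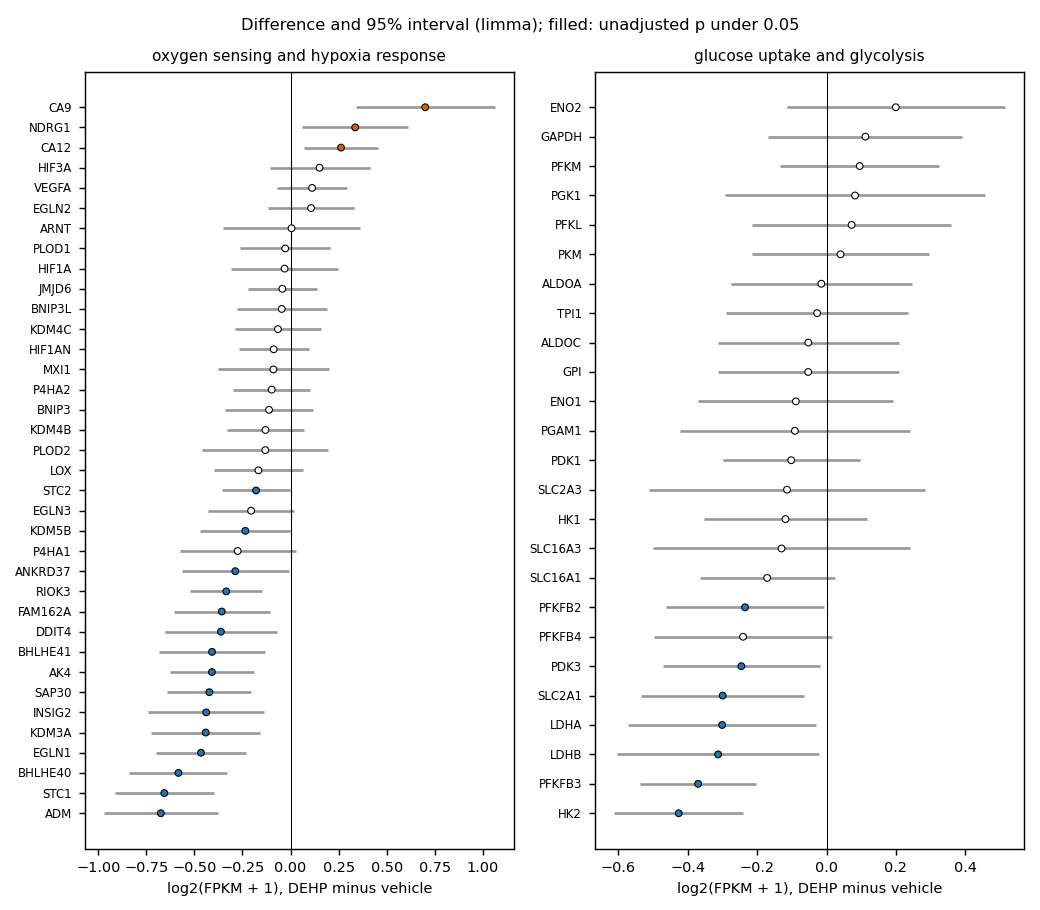
Difference in log2(FPKM + 1), DEHP minus vehicle, with its 95% interval from limma for the 36 genes of oxygen sensing and hypoxia response (left) and the 25 of glucose uptake and glycolysis (right); filled points have an unadjusted p under 0.05. On the left 15 filled points lie below 0, ADM at -0.67 farthest, and 3 above, CA9 at 0.70 farthest; on the right 7 lie below 0 and 0 above.

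Genes of glucose uptake and of the control of glycolysis were among the lower ones in mean, and HK2, PFKFB3 and SLC2A1 did not overlap between the groups. Of 25 tested genes for glucose uptake and glycolysis, 7 had an unadjusted p under 0.05 and a lower level and 0 a higher one, beside 4.90% and 3.00% of all genes. In 3 of them all DEHP libraries lay below all vehicle libraries, beside 1.64% of all genes, and the median was -0.10. HK2 (Entrez 3099), the hexokinase that traps glucose in the cell, measured 56.6, 69.9, 61.9, 62.1 and 64.1 FPKM with vehicle and 44.0, 48.9, 46.6 and 46.5 FPKM with DEHP. The groups were well separated and the spread within DEHP was small (62.9 ± 4.78 FPKM, SD, n = 5, against 46.5 ± 1.98 FPKM, SD, n = 4; -0.43, limma adjusted p 0.278). PFKFB3 (Entrez 5209) makes the sugar bisphosphate that activates phosphofructokinase, and stood at 11.7, 11.4, 11.0, 11.6 and 11.0 FPKM with vehicle and 8.07, 8.52, 8.55 and 9.04 FPKM with DEHP (-0.37, limma adjusted p 0.317). The vehicle values of PFKFB3 lay within 1 FPKM of each other, and its groups did not overlap.

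SLC2A1, the glucose transporter GLUT1, stood at 319, 264, 244, 287 and 243 FPKM with vehicle and 218, 202, 218 and 241 FPKM with DEHP (-0.30, unadjusted limma p 0.0162), and its groups did not overlap. The lactate dehydrogenase chains LDHA and LDHB differed by -0.30 and -0.31. PDK3, which holds pyruvate back from oxidation in the mitochondrion, differed by -0.25, and PFKFB2 by -0.23. PDK1 differed by -0.10 (unadjusted limma p 0.285), and PFKFB4, a further enzyme of the PFKFB family, by -0.24 (p 0.0642). Glycolytic enzymes past phosphofructokinase gave differences near 0, with ALDOA at -0.015, GAPDH at 0.11, PGK1 at 0.082, ENO1 at -0.089 and PKM at 0.040. The count of 7 was 4 without vehicle replicate 2, DEHP replicate 1 or DEHP replicate 2, 3 without vehicle replicate 3 or DEHP replicate 4, and 4 after quantile normalization.

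Cholesterol synthesis genes also lay mostly on the lower side, and none passed the adjusted threshold. Of 25 tested, 6 had an unadjusted p under 0.05 and were lower, 0 were higher and 3 lay wholly below vehicle, with a median of -0.17. Over all genes, 4.90% were lower at that p and 1.64% lay wholly below vehicle. This list too was chosen with earlier results of these data known, so its count is not independent evidence of a direction. HMGCS1, a cytosolic synthase of the early pathway, measured 34.9, 48.6, 64.2, 48.8 and 40.5 FPKM with vehicle and 31.3, 29.3, 35.9 and 30.1 FPKM with DEHP (-0.54, unadjusted limma p 0.00216), and its groups overlapped. IDI1, the isomerase of the isoprenoid units, held 34.3, 45.7, 46.4, 42.4 and 41.2 FPKM and 33.2, 33.3, 29.4 and 27.6 FPKM in the same order (-0.43, p 0.00107), and its groups did not overlap. DHCR7, a late reductase, differed by -0.28, and the SCAP-retaining proteins INSIG1 and INSIG2 by -0.30 and -0.44. The count of 6 was 11 without vehicle replicate 1, 9 without replicate 1 of both groups, 9 without vehicle replicate 5, and 4 without DEHP replicate 2 or 3. In fatty acid synthesis and desaturation, 0 of 17 genes had an unadjusted p under 0.05 in either direction, although the median was -0.14.

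The receptors that DEHP's monoester binds gave no difference that could be told from the spread between wells. PPARA, the receptor of fatty acid oxidation, measured 3.90, 2.32, 2.38, 2.52 and 1.75 FPKM with vehicle and 3.23, 3.29, 2.57 and 2.47 FPKM with DEHP (0.14, interval -0.17 to 0.46, limma adjusted p 0.815). PPARD, the broadly expressed form, differed by 0.0062 (interval -0.24 to 0.25). PPARG, the receptor of fat cell formation, was under the filter at 0.0579 ± 0.0515 FPKM (SD, n = 5) with vehicle and 0.0675 ± 0.0450 FPKM (SD, n = 4) with DEHP. Of 33 tested receptors, partners and targets, 2 were higher at an unadjusted p under 0.05, 1 was lower and 0 lay wholly outside the vehicle range on either side, with a median of 0.0027. Among all genes, 3.00% were higher and 4.90% lower at that p, and 2.53% did not overlap between the groups.

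The higher ones among PPAR targets were PLIN2 and PEX11A. PLIN2, the coat protein of lipid droplets, stood at 0.868, 1.85, 2.02, 1.82 and 1.06 FPKM with vehicle and 1.60, 2.25, 2.88 and 2.96 FPKM with DEHP (0.45, unadjusted limma p 0.0190), and its groups overlapped. PEX11A, which divides peroxisomes, differed by 0.24, and ACSL3, a long-chain acyl-CoA synthetase, differed by -0.31. CPT1A, the gatekeeper of mitochondrial fatty acid oxidation, differed by 0.078 (unadjusted limma p 0.604). For steroid synthesis and steroid hormone receptors, 17 of 43 listed genes passed the filter, 2 of them higher at an unadjusted p under 0.05 and 0 lower. These were HSD17B11, a dehydrogenase of the steroid and retinol family found on lipid droplets (0.38), and STAR, the carrier of cholesterol into mitochondria (0.23). No member lay wholly outside the vehicle range. The shares over all genes were 3.00% higher and 4.90% lower at that p, and 2.53% without overlap.

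At the higher end of the comparison stood genes of different kinds, most at low levels. CCL1 (Entrez 6346), a chemokine, measured 1.66, 1.16, 0.423, 0.436 and 1.39 FPKM with vehicle and 2.99, 3.26, 4.09 and 2.11 FPKM with DEHP. The DEHP values all lay above the vehicle values, and 2 vehicle libraries were under 0.5 FPKM (1.05, limma adjusted p 0.278). IL17F (Entrez 112744), a cytokine, held 6.12, 4.46, 4.98, 4.16 and 5.66 FPKM with vehicle and 9.61, 8.39, 7.23 and 7.45 FPKM with DEHP (0.60, limma adjusted p 0.278). Replicate 1, which stood apart in both groups, was the highest of each group for IL17F.

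CALCRL (Entrez 10203) encodes the receptor that, with a RAMP partner, binds adrenomedullin. It stood at 4.07, 4.16, 4.34, 4.18 and 4.11 FPKM with vehicle and at 6.28, 5.82, 5.83 and 5.44 FPKM with DEHP, a shift opposite in sign to that of its ligand gene ADM (0.40 against -0.67). The vehicle values of CALCRL spanned less than 0.5 FPKM and the groups did not overlap (limma adjusted p 0.278). YPEL4 (Entrez 219539), of the yippee-like family, held 10.6, 6.97, 8.54, 6.67 and 8.11 FPKM with vehicle and 11.4, 12.9, 12.5 and 12.9 FPKM with DEHP (0.57, limma adjusted p 0.278). C19orf12 (Entrez 83636), a membrane protein of mitochondria and endoplasmic reticulum, measured 1.67, 0.809, 1.83, 1.12 and 1.32 FPKM and 1.84, 3.06, 2.74 and 3.54 FPKM in the same order (0.69, limma adjusted p 0.405). For C19orf12 the highest vehicle value and the lowest DEHP value were almost equal.

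FAIM and GSTK1 had the largest differences of the 16 named genes and the least even libraries. FAIM (Entrez 55179), an inhibitor of Fas-induced cell death, measured 3.15, 1.19, 6.49, 2.23 and 2.11 FPKM with vehicle and 4.13, 12.6, 16.3 and 22.9 FPKM with DEHP. DEHP replicate 1 lay inside the vehicle range, while the other 3 lay above it (1.82, limma adjusted p 0.338). GSTK1 (Entrez 373156), a glutathione transferase of mitochondria and peroxisomes, measured 2.02, 0.134, 3.94, 0.0883 and 1.27 FPKM with vehicle and 5.29, 5.80, 3.13 and 7.17 FPKM with DEHP. Its vehicle libraries ran from below 0.1 to nearly 4 FPKM, and DEHP replicate 3 lay inside that range (1.55, limma adjusted p 0.405). PTPRB (Entrez 5787), a receptor tyrosine phosphatase best known from endothelium and the last of the lower genes named by p, was more even. It measured 5.81, 6.00, 5.90, 5.52 and 4.22 FPKM with vehicle and 3.90, 3.63, 3.23 and 3.65 FPKM with DEHP (-0.49, limma adjusted p 0.338), with no overlap.

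Few detoxification genes had a small p. Of 32 tested genes for xenobiotic receptors and metabolism, 3 were higher at an unadjusted p under 0.05 (9.38%) and 0 lower. The shares over all genes were 3.00% higher and 4.90% lower, and the list's median was 0.08. All 3 were glutathione transferases, GSTK1, MGST3 (0.31) and GSTA4 (0.22). The aryl hydrocarbon receptor gene AHR differed by 0.12 (unadjusted limma p 0.371). The count of 3 became 7 without vehicle replicate 1 or without replicate 1 of both groups. Of 23 genes for oxidative stress and metal response, 0 had an unadjusted p under 0.05.

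Immediate early genes of the AP-1 family gave the following values. FOS stood at 2.51, 2.11, 1.74, 3.21 and 1.75 FPKM with vehicle and 3.22, 3.38, 4.47 and 3.06 FPKM with DEHP (0.48, unadjusted limma p 0.00388), and its groups overlapped. FOSB, its paralog, differed by 0.35, and DUSP1, a phosphatase of MAP kinases, by 0.21. These were the 3 of 18 tested genes that were higher at an unadjusted p under 0.05 (16.7%), and 0 were lower. Over all genes the shares were 3.00% and 4.90%, and the list's median was 0.04. The count was 1 without vehicle replicate 2, vehicle replicate 3 or DEHP replicate 3, and 0 in the fits on all 29 libraries and on the 24 without bisphenol A. It was 1 among genes averaging 5 FPKM or more, and 5 with wells 2 to 4.

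Stem cell and lineage genes showed few differences. POU5F1 (OCT4), the central pluripotency factor, had 478, 672, 452, 428 and 586 FPKM with vehicle and 501, 555, 549 and 550.4 FPKM with DEHP (0.063, interval -0.24 to 0.36). DEHP replicate 1 was the lowest of its group. NANOG differed by -0.028 (interval -0.23 to 0.17), SOX2 by -0.067 (-0.31 to 0.18), LIN28A by -0.15 (-0.43 to 0.13) and the methyltransferase gene DNMT3B by -0.10 (-0.38 to 0.18), all spanning 0 and none passing the test. NANOG and SOX2 changed sign after quantile normalization, as did PPARD and COL1A1. Of 24 tested core pluripotency genes, 1 was lower at an unadjusted p under 0.05, LIN28B, the repressor of let-7 microRNAs (-0.24), and 1 was higher, LEFTY1, a NODAL inhibitor (0.34). These counts stand beside 4.90% lower and 3.00% higher over all genes.

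Of the germ layer genes, most were under the filter. For mesoderm and endoderm 12 of 29 listed genes were tested, with TBX6 (0.25) higher and ACTC1 (-0.26) lower at an unadjusted p under 0.05. For neuroectoderm 9 of 27 were tested, with NES, the intermediate filament nestin, lower (-0.29). The neuroectoderm markers summed to 102, 105 and 120 FPKM with DEHP (lowest, median and highest) and to 114, 134 and 154 FPKM with vehicle. Nearly all of this was NES, on average 103 of 108 FPKM with DEHP and 127 of 132 FPKM with vehicle. In mean, DCX was higher with DEHP (2.25 against 2.12 FPKM), and ZIC1 (2.02 against 2.35) and PAX6 (0.513 against 0.554) were lower. The part of these markers in the other results was not tested. For trophoblast 6 of 18 were tested. KRT7, a keratin of simple epithelia, was at 1.55, 1.68, 1.67, 1.77 and 1.96 FPKM with vehicle and 1.04, 0.783, 1.16 and 0.951 FPKM with DEHP (-0.46, unadjusted limma p 4.70e-04), and its groups did not overlap. Of 11 tested germ cell genes, SOHLH2 was higher (0.25) and 0 were lower. At an unadjusted p under 0.05, 4.90% of all genes were lower and 3.00% higher.

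Genes of fibroblasts and feeders gave 2 of 22 lower at an unadjusted p under 0.05 and 0 higher, beside 4.90% and 3.00% of all genes. Their median was 0.0049. COL1A1, the main fibrillar collagen chain, stood at 51.9, 39.5, 46.6, 64.9 and 32.8 FPKM with vehicle and 48.5, 39.4, 50.5 and 43.6 FPKM with DEHP (-0.019, interval -0.36 to 0.32), and its groups overlapped. The lower members included THBS1, the matrix protein thrombospondin (-0.37). With the mean of the feeder list as a covariate, 0 genes passed the adjusted threshold and 12 of the oxygen sensing genes were lower at an unadjusted p under 0.05.

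Among regulators of chromatin, only lower levels came with an unadjusted p under 0.05. Of 37 genes for DNA methylation and chromatin, 7 were lower at an unadjusted p under 0.05, 0 were higher and 2 lay wholly below vehicle, beside 4.90%, 3.00% and 1.64% of all genes. The median was -0.09. They included TET3, which oxidizes methylcytosine (-0.29), DNMT1, the maintenance methyltransferase (-0.21), RNF2, the catalytic subunit of a Polycomb complex (-0.26), KDM2B, which brings that complex to CpG islands (-0.23), and CHD7, a chromatin remodeller (-0.23). The other two were KDM3A and KDM5B, also in the hypoxia list. The count was 3 without DEHP replicate 2, 4 without DEHP replicate 4 or vehicle replicate 4, and 4 after quantile normalization.

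Cell division, energy and growth factor lists had few members with a small p. At an unadjusted p under 0.05, 2 of 31 genes for G1/S and replication licensing were lower, CCND2 (-0.31) and E2F3 (-0.21), and 1 of 27 for G2/M and mitosis, CENPF (-0.31). In oxidative phosphorylation 0 of 38 were lower or higher. The counts of this paragraph stand beside 4.90% lower and 3.00% higher over all genes. The FGF list had 1 of 17 lower, SPRED2, a brake on ERK signalling (-0.23), the WNT list 1 of 23, the receptor FZD5 (-0.27), and the TGF-beta list 1 of 28 higher, LEFTY1. Among 21 genes of the unfolded protein and heat shock responses, HSPH1, a chaperone, was lower (-0.50) and TRIB3, a stress-induced pseudokinase, was higher (0.44) with all DEHP values above vehicle, at 0.968, 1.58, 1.93, 1.61 and 1.89 FPKM and 2.33, 2.82, 2.34 and 2.46 FPKM.

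**Figure D4:**
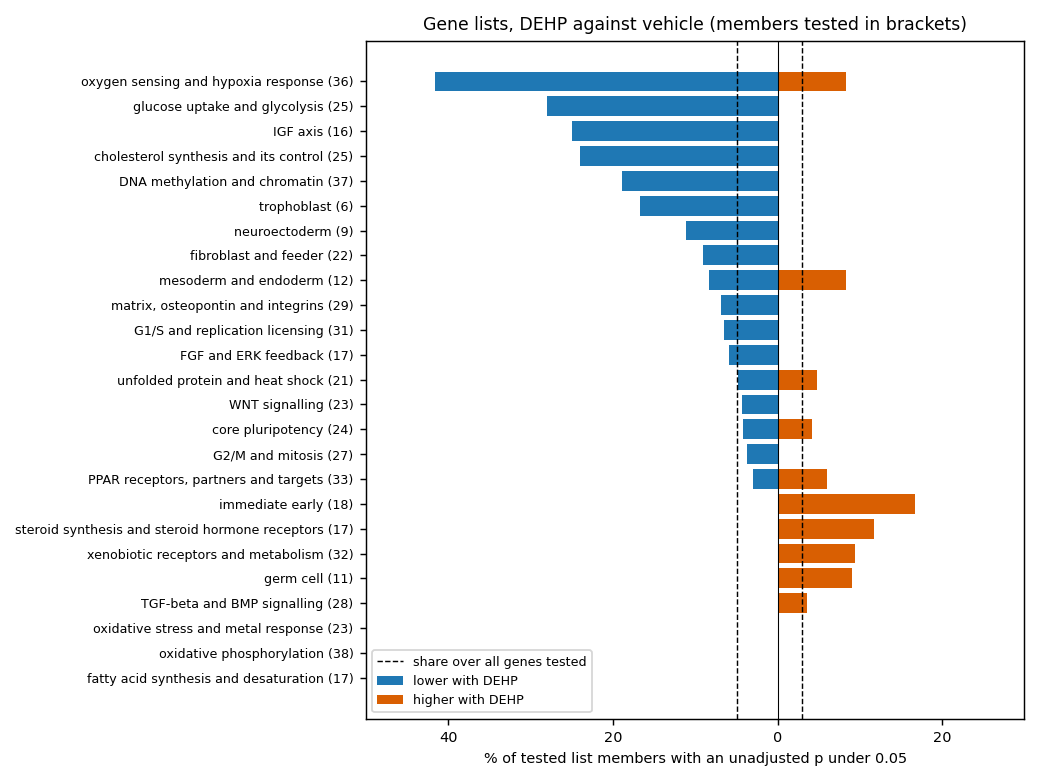
Share of the tested genes of 25 lists with an unadjusted p under 0.05, lower with DEHP to the left and higher to the right, with the number tested in brackets; dashed lines are the shares over all 11086 genes, 4.90% lower and 3.00% higher. The oxygen sensing list has the longest bar on the lower side, 15 of 36 genes, and oxidative phosphorylation has none.

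DEHP was then set directly against other compounds, without the shared vehicle libraries, at doses that differ between the compounds. Against atrazine, a herbicide, 0 of 11128 genes passed the adjusted threshold (0%), and 367 had an unadjusted limma p under 0.05 (3.30%). Against PFOA, a fluorinated surfactant, 0 of 11103 passed (0%) and 839 had an unadjusted p under 0.05 (7.56%). Against tributyltin, an organotin known as a ligand of RXR and PPARG, 27 of 11066 passed (0.244%) and 1110 had an unadjusted p under 0.05 (10.0%). Of the 27, 15 were higher with DEHP (0.136%) and 12 lower (0.108%). The genes named in these direct comparisons were picked after their values were seen, because they passed here or are named above.

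Among the genes that were higher with DEHP than with tributyltin were several known HIF targets. STC1 averaged 18.0 ± 1.62 FPKM (SD, n = 4) with DEHP, 9.72 ± 1.03 FPKM (SD, n = 5) with tributyltin, 15.7 ± 1.92 FPKM (SD, n = 5) with atrazine, 15.2 ± 1.98 FPKM (SD, n = 5) with PFOA, 26.5 ± 3.40 FPKM (SD, n = 5) with bisphenol A and 29.3 ± 4.79 FPKM (SD, n = 5) with vehicle. DEHP minus tributyltin was 0.83 (interval 0.62 to 1.04, limma adjusted p 0.00222). EGLN1 differed by 0.52 (adjusted p 0.0304), PFKFB4 by 0.97 (adjusted p 0.00149) and NDRG1 by 0.80 (adjusted p 0.0102). RIMKLA, a synthase of the neuropeptide NAAG, differed by 0.96, MGARP, a mitochondrial protein, by 1.13, and DDX58, the viral RNA sensor RIG-I, by 0.61. Of the 35 oxygen sensing genes tested here, 3 passed as higher with DEHP and 0 as lower, beside 0.136% and 0.108% of all genes. The list's median was 0.19, beside 0.0044 over all genes. This list was drawn up with earlier results of these data known, so its count is not independent evidence of a direction. HK2 differed by 0.31 (limma adjusted p 0.301) and did not pass.

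Some of the 12 genes lower with DEHP than with tributyltin are known targets of RXR partners, named after their values were seen. Of 33 tested PPAR receptors, partners and targets, 2 passed as lower and 0 as higher, beside 0.108% and 0.136% of all genes. At an unadjusted limma p under 0.05, 3 were lower and 3 higher, beside 453 and 657 of all 11066 genes. The list's median was 0.027. A part of RXR in these differences was not tested. ABCA1, the cholesterol exporter that LXR with RXR raises, averaged 11.6 ± 1.41 FPKM (SD, n = 4) with DEHP, 53.5 ± 3.60 FPKM (SD, n = 5) with tributyltin and 14.4 ± 2.38 FPKM (SD, n = 5) with vehicle. It differed by -2.12 (limma adjusted p 1.51e-07), the smallest p of that comparison. CYP26A1, which breaks down retinoic acid, differed by -0.76, RARB, a retinoic acid receptor, by -0.82, ACSL3 by -0.84 and SLC25A20, the mitochondrial carnitine carrier, by -0.84. LEFTY2, a NODAL inhibitor, differed by -0.72 and CAV1, the main caveolin, by -0.76.

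SPP1 was also lower with DEHP than with tributyltin, at -0.95 (limma adjusted p 0.0304). Its mean was 20.4 ± 5.26 FPKM (SD, n = 4) with DEHP, 39.8 ± 6.79 FPKM (SD, n = 5) with tributyltin, 35.5 ± 8.75 FPKM (SD, n = 5) with atrazine and 34.7 ± 9.01 FPKM (SD, n = 5) with PFOA. Against atrazine it differed by -0.77 (interval -1.18 to -0.36, limma adjusted p 1.000) and against PFOA by -0.74 (adjusted p 0.534), neither passing. Same-numbered DEHP and tributyltin libraries correlated in their deviations from the group means at 0.221 to 0.565. Libraries of different numbers were not compared, so pairing was not tested. With the replicate number as a block, 29 genes passed, 22 of the 27 among them. The 5 that no longer passed were SPP1 (limma adjusted p 0.0516), BMP3 (0.0614), FGF11 (0.0525), LANCL3 (0.0688) and PCDHGB7 (0.0614). The count of 27 was 13, 11 and 14 when DEHP replicate 2, 3 or 4 was left out. Under every one of the 12 alternatives run for this comparison, 10 genes passed: ABCA1, ACSL3, FAM78B, HERC3, PFKFB4, RARB, RIMKLA, RNF219, SLC25A20 and STC1.

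For STC1, EGLN1, HK2 and ADM, DEHP was also set against the other 2 compounds. DEHP minus atrazine was 0.19 for STC1 (interval -0.020 to 0.41), 0.27 for EGLN1 (0.070 to 0.47), 0.16 for HK2 (-0.027 to 0.36) and -0.53 for ADM (-0.77 to -0.28). DEHP minus PFOA was 0.24 for STC1 (0.031 to 0.45), 0.32 for EGLN1 (0.10 to 0.54), 0.11 for HK2 (-0.034 to 0.25) and -0.0094 for ADM (-0.27 to 0.25). None of these passed the adjusted threshold in limma, which does not show that the compounds act alike.

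**Figure D5:**
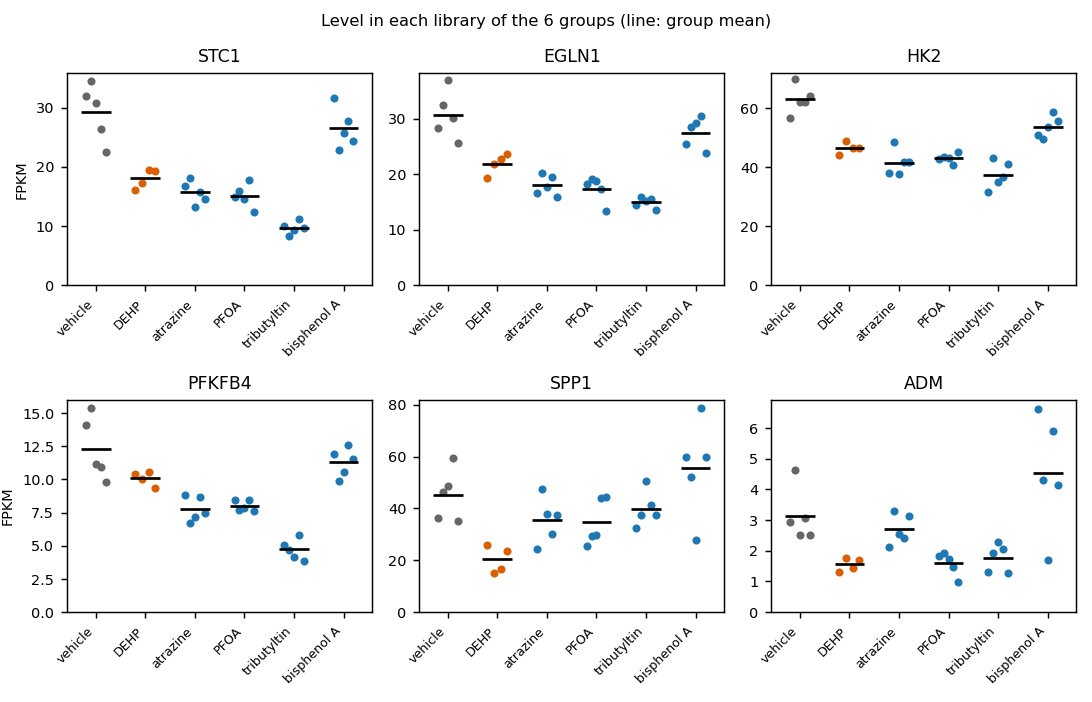
FPKM in each library of the 6 groups for STC1, EGLN1, HK2, PFKFB4, SPP1 and ADM, with a line at the group mean. For STC1 the DEHP libraries lie between the tributyltin and the vehicle libraries; for SPP1 the DEHP mean is the lowest of the 6.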

How the data were processed

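RNA of macaque embryonic stem cells was sequenced as 50-nucleotide single ends. The authors deposited 1 table of FPKM values per gene and library; the submitters' processing notes name TopHat2 2.1.1, SAMtools, Cuffdiff 2.2.1 and the mouse build GRCm38.p5 without giving their roles. The macaque build, the annotation, the handling of reads with several matches and of feeder reads are not given in the sources used here, so genes with near-identical copies (LDHA, LDHB, the PCDHG cluster) are uncertain. Gene symbols and human Entrez identifiers are those of the table. Absolute depth is unknown. Relative depth came from the smallest steps of values under 0.3 FPKM; over 1210 genes, 85.9% of 3015 values above 1 step were whole multiples within 0.1 step.

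Values were taken as log2(FPKM + 1), and fold differences are on that scale, which understates changes of low genes. Genes averaging 1 FPKM or more over the libraries compared entered limma (version 3.58.1, R version 4.3.3), fitted on those libraries only. Its moderated test was two-sided with a mean-variance trend, and p-values were adjusted by Benjamini-Hochberg over all genes tested (threshold 0.05). The code was tested on simulated data. Named genes were, per direction, the 8 with the smallest p where fewer passed, up to 4 per list with the smallest p, and a fixed set; other list members were named after their values were seen. The members and the 26 gene lists were chosen with earlier results of these data known. Replicate numbers are in the labels. Same-numbered DEHP and vehicle libraries correlated in their deviations from the group means at -0.0031 to 0.565. For atrazine this was -0.068 to 0.484, for PFOA 0.051 to 0.550 and for tributyltin 0.221 to 0.565. DEHP replicates 1 and 3 correlated best with the vehicle library of their own number (0.565 and 0.429), and replicate 2 did not. DEHP replicate 4 correlated almost equally with vehicle replicates 4 and 5 (0.137 and 0.133). Whether the numbers pair the DEHP and vehicle libraries is thus not settled, and the main fits used no block. For the other compounds, libraries of different numbers were not compared, so pairing was not tested there. Alternatives were other pseudocounts, filters, scalings, sets of libraries, weights, blocks and leaving out each library; leaving out replicate 1 of both groups was added after seeing the data. Some genes and 1 list are not reported here.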

Additional observations from a re-analysis of the deposited data

Results flagged for a closer look

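Over the 117 named genes, 234 groups of libraries were checked for a library far from the rest of its group. By Dixon's criterion at 95%, 13 stood out. This is close to the share of about 1 in 20 that chance gives, so the values below are flags only. Among the genes lower with DEHP, vehicle replicate 2 was high for ADM (4.64 FPKM, the other vehicle libraries 2.50 to 3.05) and for BHLHE40 (10.2 FPKM, the others 6.92 to 7.50). Vehicle replicate 5, the shallowest library, was low for PTPRB at 4.22 FPKM. Vehicle replicate 1 stood out for DPPA3 (6.25 FPKM), GCM1 (5.02 FPKM), SLC7A11 (6.38 FPKM) and TUBB3 (2.33 FPKM). Vehicle replicate 3 was high for CENPF (247.5 FPKM) and vehicle replicate 4 for SPRY4 (32.7 FPKM). With DEHP, replicate 1 stood out for POU5F1 (500.5 FPKM, the others 549 to 555) and GATA3 (3.90 FPKM), replicate 2 for DPPA3 (7.17 FPKM) and replicate 3 for NDUFS3 (37.1 FPKM).

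DEHP and tributyltin differed in the direct test by limma at an adjusted p under 0.05 in 27 genes, given here as DEHP minus tributyltin on the log2(FPKM + 1) scale. Higher with DEHP were MGARP (1.13), PFKFB4 (0.97), RIMKLA (0.96), PCDHGB7 (0.95), CLDN14 (0.86), STC1 (0.83), NDRG1 (0.80), HERC3 (0.79), TNIP1 (0.65), RAB2B (0.63), FGF11 (0.61), DDX58 (0.61), LANCL3 (0.54), EGLN1 (0.52) and BMP3 (0.51). Lower with DEHP were ABCA1 (-2.12), RNF219 (-0.99), SPP1 (-0.95), ACSL3 (-0.84), SLC25A20 (-0.84), RARB (-0.82), FAM78B (-0.77), CAV1 (-0.76), CYP26A1 (-0.76), LEFTY2 (-0.72), ARHGAP36 (-0.71) and SPRED2 (-0.58). The compound and its plate cannot be told apart here.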

How the results depend on the processing

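The 0 genes called for DEHP against vehicle stayed at 0 with pseudocounts of 0.5 and 2, with no filter, with a mean of at least 5 FPKM, with median-of-ratios scaling, quantile normalization, no trend, the feeder covariate, and without replicate 1 of both groups. It was 1 (1 lower, STC1) with all 29 libraries, 3 (3 lower, IGFBP5, SPP1 and STC1) with the 24 libraries without bisphenol A, 14 (6 higher, 8 lower) with library weights and 1 (1 lower, SPP1) with wells 2 to 4. Leaving out each library gave 0 to 4 (higher 0 to 2, lower 0 to 2). With the replicate block, 6 genes were called (2 higher, IL17F and SUMO4; 4 lower, BHLHE40, CAV1, SPP1 and STC1); DEHP replicate 2 correlated best with vehicle replicate 3 (0.245), not with its own number (-0.0031). Against atrazine, leaving out each library gave 0 to 1 (higher 0 to 1, lower 0), the 1 being KLK8 without DEHP replicate 2, and against PFOA 0 throughout. Against tributyltin the 27 genes (15 higher, 12 lower) became 52 (27 higher, 25 lower) with all 29 libraries. Leaving out each library gave 11 to 30 (higher 4 to 18, lower 7 to 13). The fit with the replicate block called 29 (12 higher, 17 lower), of which 22 were among the 27.

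Signs changed for uncalled genes near 0: under quantile normalization PPARD was -0.015, NANOG 0.080, SOX2 0.028 and COL1A1 0.043. PPARD was -0.049 with the replicate block, and COL1A1 was 0.0074 with the feeder covariate. Leaving out each library gave -0.050 to 0.066 for PPARD (0.078 without replicate 1 of both groups), -0.080 to 0.0059 for NANOG, -0.14 to 4.02e-05 for SOX2, -0.14 to 0.10 for COL1A1 and -0.0041 to 0.16 for POU5F1. The causes were not tested. Scalings moved the median gene by under 0.1. Low genes rest on few reads, and depth limits them most in vehicle replicate 5.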
